A study of Rattus norvegicus with 59 samples.

Results

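Frontal cortex was set against the striatum, hippocampus, amygdala and nucleus accumbens of the same rats. The members are the 11 arrays titled cortex, of 59 arrays in all, 5 from inbred alcohol-preferring rats (iP, line iP5C) and 6 from inbred non-preferring rats (iNP, line iNP1). Both lines were bred by selection for how much alcohol the animals drink of their own accord and were then inbred. All animals were adult males that had been handled daily before decapitation, and the labels name no drug or alcohol treatment. RNA of each region of each rat was hybridised separately to an Affymetrix rat array of 8799 probe sets, so 1 array is 1 region of 1 animal. The other regions have 12 arrays each, 6 iP and 6 iNP. The cortex array of iP animal 6 was not analysed here, and this leaves 11 rats (iP animals 1 to 5 and iNP animals 7 to 12) with a cortex array. Each value tested was a difference within a rat, the cortex level minus the mean level of the other 4 regions of that rat, so both lines enter together and each rat is its own control. Levels are log2 of the deposited signal, with signals under 16 set to 16, and a difference of 1 is a factor of 2.

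The frontal cortex is a layered sheet of glutamatergic projection neurons that is kept in balance by several classes of GABA-releasing interneurons. Fast-spiking basket cells contain the calcium buffer parvalbumin, other interneurons release vasoactive intestinal peptide or cholecystokinin, and both kinds shape the firing of the projection neurons. Striatum and accumbens, in contrast, are built almost wholly of GABA-releasing medium spiny neurons that carry dopamine receptors and make opioid and tachykinin peptides. The tissue was dissected as a whole, so fewer cells of a type and less RNA per cell cannot be told apart in any value below.

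When each array was correlated with all others and the median taken per region, 5 of the 59 arrays were nearest to a region other than their own. They were cortex of iP animal 5 (nearest amygdala), amygdala of iP animal 1 (nearest cortex), amygdala of iNP animals 7 and 8 (both nearest accumbens) and accumbens of iP animal 4 (nearest amygdala). On cortex of iP animal 5 the median signal was 250.9, against 323.4 to 355.1 on the other 10 cortex arrays. Its Gapdh 3′ to 5′ signal ratio, which is high when transcripts are shortened from the 5′ end, was 6.14 (log2), against -0.03 to 0.15 on the other 10. Its mean correlation with the other arrays of its group was 0.813, against 0.922 to 0.969 on the other 10. Results are therefore given with and without iP animal 5. Cortex against the mean of the other regions called 52 probe sets with all rats, 53 without iP animal 4, 50 without iNP animal 7 and 53 without iNP animal 8. The part of these arrays in a result was not tested beyond leaving out animals.

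The largest rises in cortex were those of Tnnc2, Dact2, Olr59 and Pvalb, and the largest falls those of Gnal, Rgs9 and Drd1, among genes named by the brightest probe set. Of 5244 probe sets tested, 23 were called higher in cortex (0.439%) and 29 lower (0.553%), at a limma adjusted p under 0.05 and a mean difference over 1 in size. Leaving out iP animal 5 gave 33 higher (0.629%) and 29 lower (0.553%), with 51 probe sets called both ways, 1 called only with that animal and 11 only without it. The higher calls cover 19 named genes and the lower calls 23. Of the 23 higher calls, 22 had the same sign in all 11 rats, as had 26 of the 29 lower calls. Over all tested probe sets 3.15% were higher and 2.96% lower in all 11 rats. Cortex had the highest mean of the 5 regions in 23 of 23 higher calls and the lowest in 23 of 29 lower calls. This follows in large part from how the calls were chosen and lends them no support. The share over all tested probe sets was not computed. At the adjusted p alone, 372 probe sets were higher (7.09%) and 327 lower (6.24%), and without iP animal 5 there were 695 (13.3%) and 568 (10.8%).

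The label of the tissue was checked against 4 cortex genes given with the comparison, Tnnc2, Dact2, Pvalb and Plcb4. They were known from earlier results of these data to be high in cortex, so their levels are given as a description and lend no independent support. Their promoters are shown because the 4 genes shared a regional pattern. Each line gives the sense strand 5′ to 3′ from 250 bases before to 50 bases after the RefSeq gene start (rat GRCr8), and capitals mark each CANNTG, the E-box that basic helix-loop-helix factors of muscle and neurons bind.
Tnnc2, chr3:173935290-173935589, minus strand: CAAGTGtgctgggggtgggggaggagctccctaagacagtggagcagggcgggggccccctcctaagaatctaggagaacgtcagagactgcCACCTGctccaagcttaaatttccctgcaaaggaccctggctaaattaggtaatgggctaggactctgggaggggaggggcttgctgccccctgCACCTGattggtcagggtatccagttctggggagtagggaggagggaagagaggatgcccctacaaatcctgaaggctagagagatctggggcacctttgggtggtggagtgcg
Pvalb, chr7:111666240-111666539, minus strand: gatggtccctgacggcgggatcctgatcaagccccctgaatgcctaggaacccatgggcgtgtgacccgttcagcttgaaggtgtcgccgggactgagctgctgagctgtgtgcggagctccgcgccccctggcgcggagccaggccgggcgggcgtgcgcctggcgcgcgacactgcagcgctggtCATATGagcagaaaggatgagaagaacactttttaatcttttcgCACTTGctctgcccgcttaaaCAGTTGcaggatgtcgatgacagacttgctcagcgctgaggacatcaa
Dact2, chr1:63863049-63863348, minus strand: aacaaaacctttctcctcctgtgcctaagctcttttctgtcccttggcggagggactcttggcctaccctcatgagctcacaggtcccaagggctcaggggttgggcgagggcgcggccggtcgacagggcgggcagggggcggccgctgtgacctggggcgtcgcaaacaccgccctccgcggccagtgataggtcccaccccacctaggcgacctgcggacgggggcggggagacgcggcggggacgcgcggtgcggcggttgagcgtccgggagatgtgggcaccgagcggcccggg
Plcb4, chr3:143405723-143406022, plus strand: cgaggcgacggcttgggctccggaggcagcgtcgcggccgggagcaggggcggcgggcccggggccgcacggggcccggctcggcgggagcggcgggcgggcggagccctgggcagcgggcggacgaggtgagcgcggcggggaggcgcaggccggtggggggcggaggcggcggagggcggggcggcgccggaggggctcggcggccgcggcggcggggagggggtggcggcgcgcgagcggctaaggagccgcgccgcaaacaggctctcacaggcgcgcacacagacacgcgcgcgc
CANNTG reads the same on both strands, and no 2 capital runs overlap. Tnnc2 and Pvalb each held 3 matches, and Dact2 and Plcb4 held 0. Of all 33469 promoters of 300 bases in the RefSeq table, 72.1% held at least 1 match and 16.6% at least 3. The promoter of Plcb4 was 84.3% G and C and that of Dact2 70.7%, against 60.7% for Pvalb, 58.7% for Tnnc2 and a median of 51.7% over all promoters. These matches describe letters in the window only.

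Tnnc2 encodes the troponin C of fast skeletal muscle, a calcium sensor of the EF-hand family. Its log2 level in cortex was 9.91, 10.13, 10.29, 10.09 and 10.54 in iP animals 1 to 5 and ran from 10.41 over a median of 10.50 to 10.82 in iNP rats. It ran from 8.72 over 9.54 to 10.03 in striatum, 7.47 over 8.26 to 9.50 in hippocampus, 7.99 over 8.15 to 8.55 in amygdala and 8.13 over 8.63 to 8.97 in accumbens. Every cortex array lay above every hippocampus, amygdala and accumbens array, and only the top of the striatum range reached the lowest cortex array. Within rats the cortex difference was 1.75 ± 0.08 (log2, SE, n = 11; limma adjusted p = 1.36e-08) and lay between 1.36 and 2.04 in single rats. Without iP animal 5 it was 1.72. Tnnc2 was also the only gene called higher against each of the 4 regions taken alone, by 1.02 ± 0.10 against striatum, 1.99 ± 0.15 against hippocampus, 2.19 ± 0.11 against amygdala and 1.78 ± 0.10 against accumbens.

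The other skeletal muscle genes that were tested did not share that pattern, and for those too dim to be tested it cannot be told. Of 25 genes of the muscle list 19 were on the array and 7 passed the filter on low signals, and of these 7 only Tnnc2 passed the adjusted p, also without iP animal 5. The median linear signal of Tnnc2 was 1369 in cortex and 372.3 over the other regions. The skeletal actin gene Acta1 had 699.1 in cortex and 704.2 in the others, the myosin heavy chain gene Myh1 had 5383 and 5861, and the fast troponin I gene Tnni2 had 32.33 and 35.9, near the floor. The summed signal of the 19 genes ran from 10060 to 13990 in cortex and from 8706 to 13440 over the other regions. This sum is of linear signals and includes Tnnc2, and Myh1 weighs most in it, so it cannot show a rise of dim members.

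Dact2 encodes a partner of Dishevelled in Wnt signalling. Its level in cortex was 11.04, 11.26, 11.34, 11.43 and 11.39 in iP animals 1 to 5 and 10.70 to 11.36 in iNP rats, around a median of 11.01. The other regions ran from 9.98 over 10.42 to 10.87 in striatum, 9.06 over 9.58 to 10.38 in hippocampus, 9.12 over 9.43 to 10.92 in amygdala and 8.84 over 9.32 to 9.63 in accumbens. Striatum overlapped the low end of cortex, and the single high amygdala array was that of iP animal 1. The difference was 1.43 ± 0.08 (adjusted p = 1.03e-07), with 0.90 to 1.82 in single rats and 1.41 without iP animal 5. The difference was smallest against striatum (0.76 ± 0.09) and largest against accumbens (1.84 ± 0.09).

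Pvalb encodes parvalbumin, the calcium buffer of fast-spiking interneurons. Cortex had levels of 11.57, 11.39, 11.86, 11.90 and 12.18 in iP animals 1 to 5, and 11.30 to 12.00 in iNP rats around a median of 11.57. Levels ran from 10.11 over 10.57 to 11.02 in striatum, 10.43 over 10.71 to 11.29 in hippocampus, 9.52 over 9.76 to 11.40 in amygdala and 9.64 over 10.08 to 10.47 in accumbens. Apart from amygdala of iP animal 1, no array of another region reached the cortex range. The difference was 1.35 ± 0.09 (adjusted p = 2.93e-07), 0.83 to 1.76 in single rats and 1.32 without iP animal 5. Pvalb differed from the other 3 genes in its nearest region, with 0.93 ± 0.11 against hippocampus and 1.15 ± 0.08 against striatum. Whether these 2 differences differ from each other was not tested.

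Plcb4 encodes a phospholipase C that acts below Gq-coupled receptors. Its level in cortex was 10.24, 10.08, 10.04, 10.22 and 10.47 in iP animals 1 to 5 and 9.85 to 10.27 in iNP rats, around a median of 10.15. The ranges were 9.14 over 9.52 to 9.91 in striatum, 7.40 over 8.17 to 9.06 in hippocampus, 8.13 over 8.33 to 10.41 in amygdala and 8.36 over 9.03 to 9.49 in accumbens. Cortex again overlapped only the top of striatum and amygdala of iP animal 1. The difference was 1.32 ± 0.10 (adjusted p = 7.63e-07), 0.87 to 2.00 in single rats and 1.25 without iP animal 5. Another Plcb4 probe set, on another sequence record, differed by 0.23 ± 0.20 (adjusted p = 0.535), so the call rests on 1 of 2 probe sets.

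**Figure D1:**
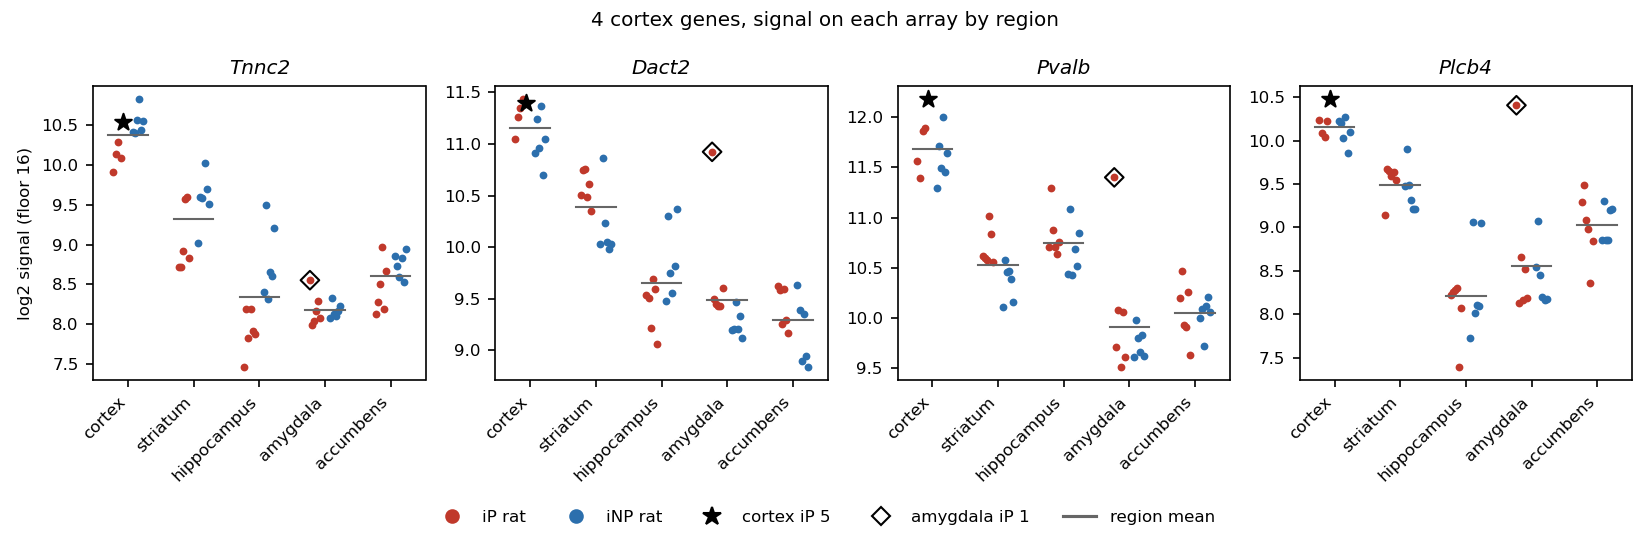
Log2 signal of Tnnc2, Dact2, Pvalb and Plcb4 on each of the 59 arrays by region, with iP rats in red to the left of iNP rats in blue and the region mean as a line. Cortex lies highest in each panel, and amygdala of iP animal 1 (diamond) lies at 10.92 for Dact2, 11.40 for Pvalb and 10.41 for Plcb4, within or near the cortex range, but at 8.55 for Tnnc2.

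No line difference in the cortex difference of these 4 genes passed the test. The iP minus iNP difference of the within-rat values was 0.06 ± 0.16 for Tnnc2, 0.04 ± 0.17 for Dact2, -0.09 ± 0.18 for Pvalb and 0.05 ± 0.20 for Plcb4, each with a limma adjusted p of 0.999. The level of Tnnc2 itself, not tested between the lines here, averaged 10.19 ± 0.24 in iP cortex (SD, n = 5) and 10.54 ± 0.16 in iNP cortex (n = 6), and 7.91 ± 0.27 in iP hippocampus and 8.78 ± 0.47 in iNP hippocampus (n = 6 each).

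The genes whose means over the 10 groups of region and line ran most like each of the 4 genes were ranked by Pearson correlation, as a description only. The groups share animals, arrays and scaling. Tnnc2 ran closest to Tacr3 (r = 0.967, n = 10 groups), which encodes the neurokinin B receptor, then to the transcription factor gene Klf10 (0.937) and the neurturin receptor gene Gfra2 (0.923). Dact2 ran closest to the plasma membrane calcium pump gene Atp2b2 (0.977), the lipid phosphatase gene Inpp5d (0.967) and Gfra2 (0.951). Pvalb ran closest to Snap25 of the synaptic release machinery (0.981), the glutaminase gene Gls2 (0.959) and the fast potassium channel gene Kcnc1 (0.937). Plcb4 ran closest to the adrenergic receptor gene Adra1b (0.986), the zinc finger gene Zfp180 (0.970) and S100a10 (0.961).

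Several of the other genes that rose in cortex encode receptors and what lies directly below them. Adra1b, the alpha-1B adrenergic receptor, which couples to Gq, had levels of 9.32 to 9.90 in cortex around a median of 9.64. It lay at 8.28 to 9.61 in striatum, 7.29 to 8.27 in hippocampus, 7.61 to 9.23 in amygdala and 8.20 to 9.07 in accumbens. It rose by 1.20 ± 0.07 (adjusted p = 2.19e-07), in 11 of 11 rats. Tacr3, the receptor of neurokinin B, had a cortex median of 9.60 and rose by 1.31 ± 0.16 (adjusted p = 0.00011) in 10 of 11 rats. The exception was iP animal 5, whose cortex array had 7.78, and without it the difference was 1.46. Gfra2, which binds neurturin together with the Ret kinase, had 10.06 to 10.43 in cortex and rose by 1.12 ± 0.06. Its other probe set, on another record, rose by 0.72 ± 0.16 (adjusted p = 0.00707), under the call size. Rgs4, which speeds the shut-off of G-protein signals, had 10.73 to 12.24 in cortex around a median of 11.81, the lowest again iP animal 5. Its difference was 1.19 ± 0.12 (adjusted p = 1.62e-05) and 1.30 without that animal.

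The next named rises were those of Vip, on the interneuron list, of the sodium channel gene Scn1a and of S100a10. Of 16 interneuron genes tested, 8 were higher and 4 lower at the adjusted p alone, as given below. Vip, the peptide that names a class of interneurons, had 8.87 to 9.66 in cortex around a median of 9.23. It had 8.12 to 9.02 in striatum, 7.54 to 8.53 in hippocampus, 8.03 to 9.15 in amygdala and 6.08 to 8.37 in accumbens, so that striatum and amygdala reached the cortex range. Vip rose by 1.11 ± 0.09 (adjusted p = 1.79e-06) in 11 of 11 rats. Scn1a, the sodium channel that carries the spikes of parvalbumin cells, rose by 1.07 ± 0.11 (adjusted p = 1.62e-05) and had 10.24 to 11.59 in cortex. S100a10, the annexin partner p11 of the S100 family, had 9.79 to 10.30 in cortex and rose by 1.16 ± 0.09 (adjusted p = 1.47e-06). The rises were 1.08 for Vip, 1.04 for Scn1a and 1.11 for S100a10 without iP animal 5.

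The remaining named rises were of mixed function. Olr59, annotated as an olfactory receptor, had 8.39 to 9.31 in cortex and rose by 1.41 ± 0.13 (adjusted p = 5.14e-06). Rasl11b, a small GTPase of the Ras family, rose by 1.26 ± 0.12, Rassf5, which binds active Ras, by 1.21 ± 0.15, and Medag by 1.05 ± 0.10. A pair of genes had probe sets that disagreed in size. The brightest probe set of the synaptic scaffold gene Homer1 differed by 0.59 ± 0.05, while another on a different record differed by 1.35 ± 0.08 (adjusted p = 1.84e-07). The alpha-1D adrenergic receptor gene Adra1d, named after its values were seen, differed by 0.33 ± 0.10 on its brightest probe set (adjusted p = 0.0415) and by 1.65 ± 0.13 on another (adjusted p = 1.79e-06).

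**Figure D2:**
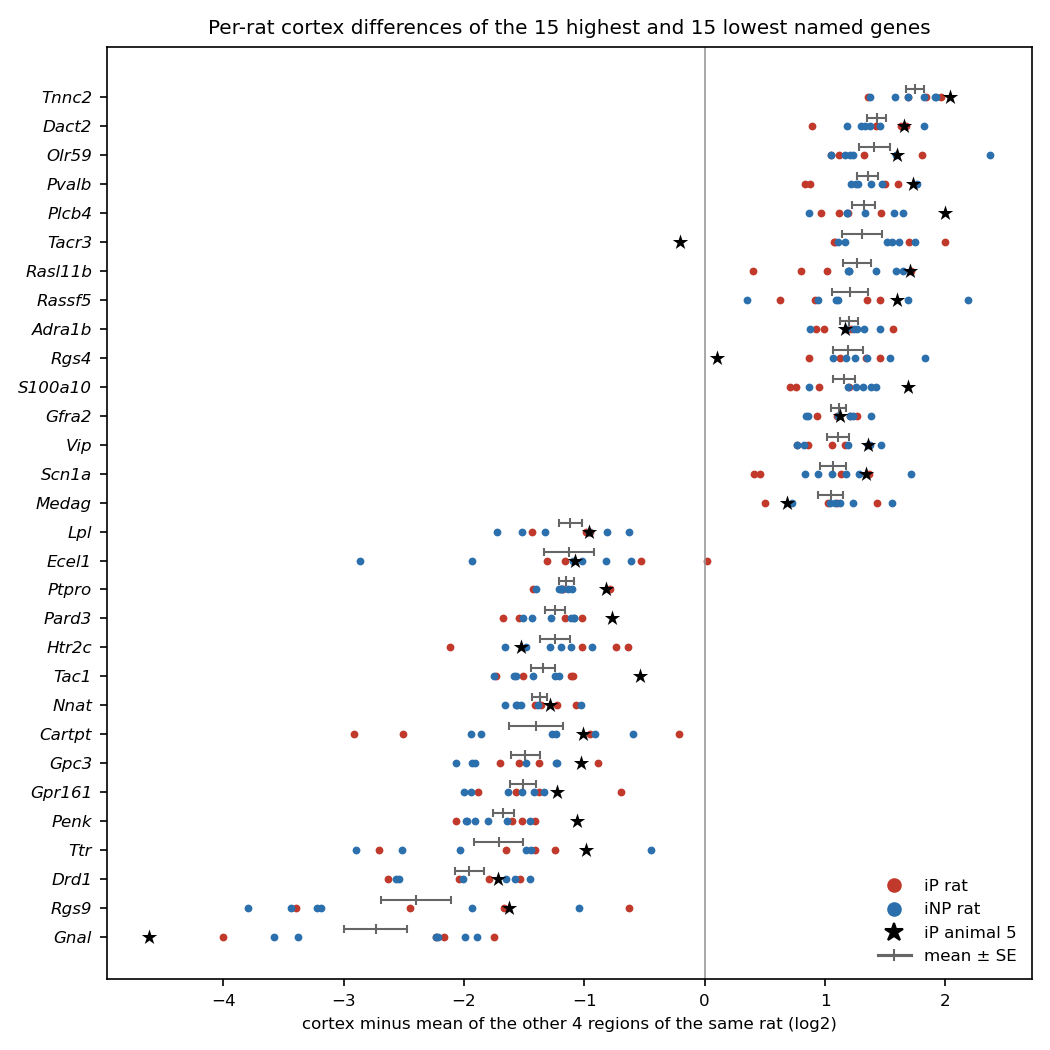
Cortex minus the mean of the other 4 regions of the same rat (log2) for the 15 highest and 15 lowest named genes, with 1 point per rat (red iP, blue iNP, star iP animal 5) and the mean with its SE over 11 rats drawn above the points. Tnnc2, Dact2, Olr59 and Pvalb, at the top, are above 0 in each rat, and iP animal 5 lies below all other rats for Tacr3 (-0.21), Rgs4 (0.11) and Gnal (-4.62) and above them for Tnnc2 (2.04), Plcb4 (2.00), S100a10 (1.69), Penk (-1.06), Tac1 (-0.54) and Pard3 (-0.77). Over all calls it lies outside the other rats in 6 above and 2 below of 23 higher calls, and in 7 above and 2 below of 29 lower calls. Of all 5244 tested probe sets it lies above the other rats in 1396 and below them in 1486. Lying outside is thus not particular to the calls.

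Striatum was the region nearest to cortex for most of the probe sets called higher in cortex. Among the 23 higher calls, the striatum mean was the next highest in 17, the hippocampus mean in 4, and the amygdala and accumbens means in 1 each. The same count over all tested probe sets was not made, so whether this is particular to the calls cannot be told. The median of cortex minus striatum over these 23 calls was 0.71, against 1.68 for hippocampus, 1.41 for amygdala and 1.44 for accumbens. The 4 comparisons share the cortex arrays. Only 2 of the 23 were also called higher against striatum alone, while 19 were against hippocampus, 20 against amygdala and 18 against accumbens. Rgs4 differed from striatum by 0.43 ± 0.15 (adjusted p = 0.143) and from hippocampus by 1.92 ± 0.17. Tacr3 differed from striatum by 0.68 ± 0.21 (adjusted p = 0.0854) and from amygdala by 1.59 ± 0.21.

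Over all tested probe sets, cortex was called higher than striatum in 17 (0.324%) and lower in 38 (0.725%). Against hippocampus there were 78 (1.49%) and 46 (0.877%), against amygdala 65 (1.24%) and 46 (0.877%), and against accumbens 41 (0.782%) and 62 (1.18%). Leaving out iP animal 5 gave 19 higher (0.362%) and 39 lower (0.744%) against striatum, 94 (1.79%) and 45 (0.858%) against hippocampus, 80 (1.53%) and 47 (0.896%) against amygdala, and 55 (1.05%) and 71 (1.35%) against accumbens. Called against each of the 4 regions were 1 probe set higher (0.0191%), that of Tnnc2, and 3 lower (0.0572%). The 3 were Hrk, which encodes an activator of cell death, a probe set of the lipoprotein lipase gene Lpl and 1 probe set with no gene name, and Hrk and this Lpl probe set were named after their values were seen. With iP animal 5 left out, a probe set of the kinase gene Camk2g was called higher as well (2 in all, 0.0381%), and the lower count stayed at 3 (0.0572%). The adjusted p alone was passed against each region by 53 probe sets higher (1.01%) and 32 lower (0.61%). All of Tnnc2, Dact2, Pvalb and Plcb4 were among the 53, as were Vip, the peptide gene Cck and the potassium channel genes Kcnc1 and Kcnc2.

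A complete separation of the arrays was rare. In 1 of 5244 probe sets (0.0191%), annotated to several genes, every cortex array lay above all 48 arrays of the other regions, and in 1 (0.0191%), that of Lpl named above, every cortex array lay below them. Without iP animal 5 there were 2 above (0.0381%), with Tacr3 added, and 1 below (0.0191%).

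**Figure D3:**
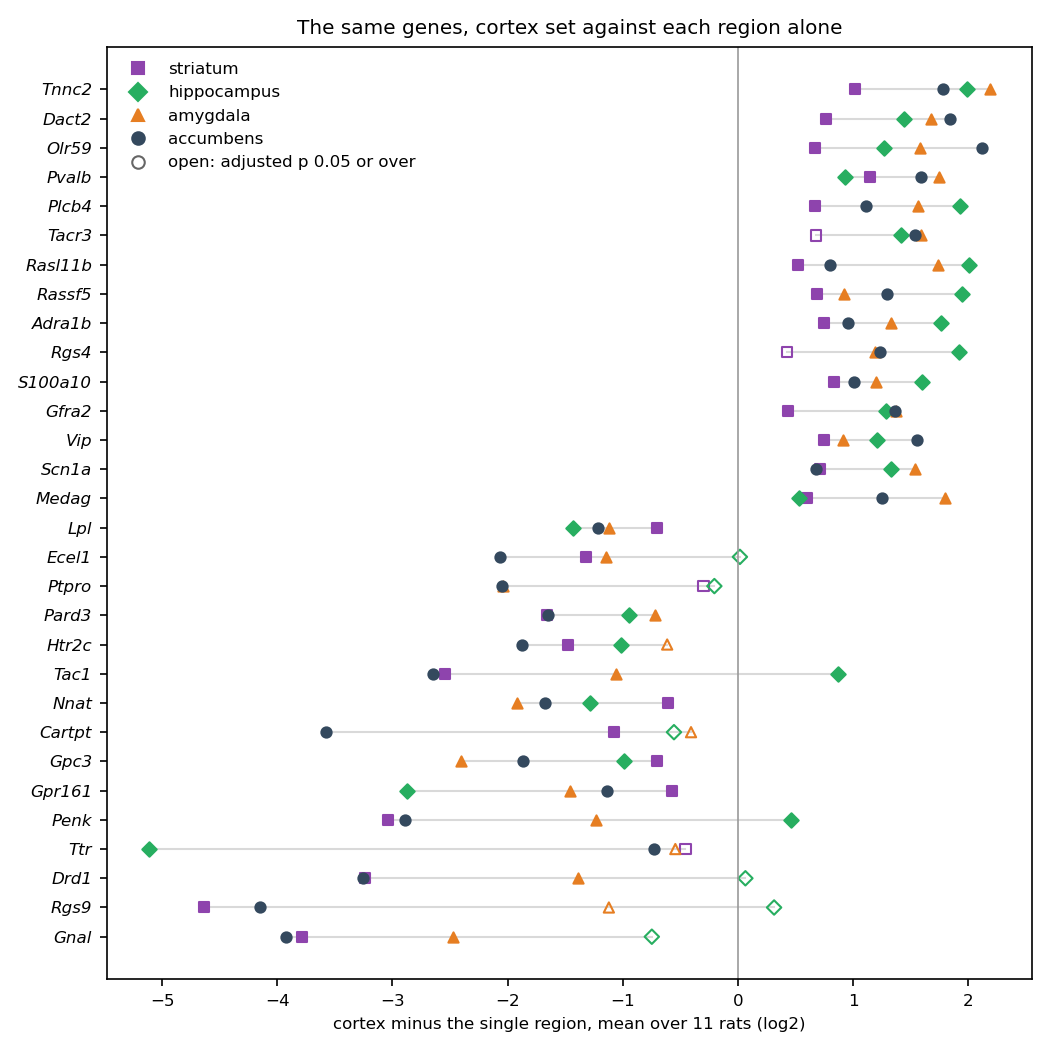
The mean of cortex minus each single region over 11 rats (log2) for the same 30 genes, with a filled symbol where the limma adjusted p was under 0.05 and an open symbol where it was not. The purple squares of striatum lie nearest to 0 for most of the upper genes, and the lower genes split into those far below striatum and accumbens (Rgs9, Drd1, Penk, Tac1), 1 far below hippocampus (Ttr at -5.12) and those below each region (Nnat, Gpc3, Gpr161, Lpl, Pard3).

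The genes lowest in cortex were those of medium spiny neurons. Gnal encodes the G protein that links dopamine D1 and adenosine A2a receptors to adenylyl cyclase in striatum. Its level ran from 4.62 over 7.61 to 8.05 in cortex, 9.75 over 10.61 to 11.30 in striatum, 5.72 over 7.89 to 8.69 in hippocampus, 7.43 over 9.26 to 10.47 in amygdala and 9.43 over 10.85 to 11.30 in accumbens. Cortex thus overlapped hippocampus and the low end of amygdala, and lay below both striatal regions on every array. Gnal fell by 2.73 ± 0.26 (adjusted p = 8.56e-06). Cortex of iP animal 5 had the 4.62, and the difference was -2.54 without that animal. Drd1, the dopamine D1 receptor, ran from 7.31 to 8.42 in cortex, 10.37 to 11.82 in striatum, 7.32 to 8.21 in hippocampus, 7.88 to 10.59 in amygdala and 10.86 to 11.47 in accumbens. It fell by 1.95 ± 0.12 (adjusted p = 2.19e-07). Rgs9, which quenches dopamine receptor signals in striatum, fell by 2.40 ± 0.29 (adjusted p = 7.09e-05). The differences were -1.98 for Drd1 and -2.47 for Rgs9 without iP animal 5.

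Of the peptide genes of these neurons, Penk and Tac1 were lower in cortex than in striatum and higher than in hippocampus. Penk, the enkephalin precursor, ran from 9.85 to 10.71 in cortex, 12.63 to 13.89 in striatum, 9.23 to 10.07 in hippocampus, 10.35 to 12.34 in amygdala and 12.87 to 13.35 in accumbens. It fell by 1.68 ± 0.09 against the mean of the 4 regions (adjusted p = 6.7e-08) but was higher in cortex than in hippocampus by 0.46 ± 0.08 (adjusted p = 0.0017). Tac1, the precursor of substance P, fell by 1.34 ± 0.10 (adjusted p = 8.32e-07) and was higher than in hippocampus by 0.87 ± 0.10 (adjusted p = 3.8e-05). With iP animal 5 left out, Penk differed from the mean of the 4 regions by -1.74 and Tac1 by -1.42. Rgs9 and Drd1 differed from hippocampus by 0.31 ± 0.29 and 0.07 ± 0.14, neither past the threshold. Pdyn, the dynorphin precursor, named after its values were seen, differed by -0.02 ± 0.08 overall (adjusted p = 0.926), by -0.14 from striatum (adjusted p = 0.479) and by -0.03 from hippocampus (adjusted p = 0.881). Cartpt, the precursor of the CART peptide, fell by 1.40 ± 0.22 (adjusted p = 0.00073), with -3.57 ± 0.18 against accumbens and -0.41 ± 0.30 against amygdala, the last not past the threshold (adjusted p = 0.37).

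A further set of genes was low in cortex against each single region. Nnat encodes neuronatin, a small membrane protein of developing and adult neurons, and ran from 10.96 over 11.23 to 11.43 in cortex. It ran from 10.87 over 11.77 to 12.32 in striatum, 11.76 over 12.38 to 12.82 in hippocampus, 11.38 over 13.25 to 13.59 in amygdala and 12.61 over 12.81 to 13.12 in accumbens. Hippocampus and accumbens did not overlap cortex, and 2 striatum arrays and amygdala of iP animal 1 did not lie above it. Nnat fell by 1.37 ± 0.06 (adjusted p = 1.51e-08) in 11 of 11 rats. Gpc3, a heparan sulfate proteoglycan of the cell surface, fell by 1.49 ± 0.12, most against amygdala (-2.40 ± 0.21). Gpr161, a receptor of the primary cilium, fell by 1.51 ± 0.11, most against hippocampus (-2.88 ± 0.11). Pard3, a polarity protein, fell by 1.24 ± 0.08.

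Lpl, which frees fatty acids from lipoproteins, fell on each of its 3 tested probe sets, by 1.12 ± 0.10, 1.14 ± 0.09 and 1.42 ± 0.06. The first and the next lie on the same sequence record. Ptpro, a receptor tyrosine phosphatase, fell by 1.15 ± 0.06 (adjusted p = 1.03e-07), which came from 2 regions, with -2.04 ± 0.16 against amygdala and -2.05 ± 0.07 against accumbens. Against striatum it differed by -0.30 ± 0.09 (adjusted p = 0.063) and against hippocampus by -0.20 ± 0.10 (adjusted p = 0.19). The serotonin receptor gene Htr2c fell by 1.25 ± 0.12, and Ecel1, an endopeptidase of the neprilysin family, by 1.13 ± 0.21.

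The fall of Ttr came from hippocampus. Ttr encodes transthyretin, the main secreted protein of the choroid plexus, and ran from 6.35 over 7.93 to 8.43 in cortex, 7.69 over 8.25 to 8.62 in striatum, 9.28 over 12.79 to 15.55 in hippocampus, 7.64 over 8.38 to 8.69 in amygdala and 8.13 over 8.50 to 8.81 in accumbens. Its overall difference was -1.71 ± 0.20 (adjusted p = 6.49e-05), but it was -5.12 ± 0.55 against hippocampus and between -0.45 and -0.73 against the others. The summed signal of the 7 choroid plexus genes on the array ran from 2249 to 3474 in cortex and from 3258 to 65490 in hippocampus, and its part in the other differences from hippocampus was not tested.

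Members of gene lists were counted by the adjusted p only, with the brightest probe set standing for each gene. Over all 3174 genes so chosen, 230 were higher in cortex (7.25%) and 200 lower (6.3%), with a median difference of -0.01. Of the list of GABA interneuron genes 17 of 20 were on the array and 16 were tested, of which 8 were higher, 4 lower and 4 did not pass, with a median of 0.17. The counts were also 8 and 4 without iP animal 5. The higher members were led by Pvalb, Vip, the cholecystokinin precursor gene Cck (0.87 ± 0.06) and Kcnc2 (0.70 ± 0.08) and Kcnc1 (0.67 ± 0.09), the channels that let parvalbumin cells repolarise fast. The 4 lower members, named after their values were seen, were the vesicular GABA transporter gene Slc32a1 (-0.34 ± 0.06), the GABA-synthesising enzyme gene Gad1 (-0.34 ± 0.08), the neurokinin B precursor gene Tac3 (-0.42 ± 0.11) and the calretinin gene Calb2 (-0.55 ± 0.07). Slc32a1 differed by -0.94 from accumbens, -0.49 from striatum (adjusted p = 0.00238), 0.01 from amygdala and 0.08 from hippocampus, the last pair not past the threshold. Gad1 differed by -0.95 from accumbens, -0.40 from striatum (adjusted p = 0.0978), -0.09 from amygdala and 0.09 from hippocampus, of which only the first passed.

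Among cortical projection neuron genes 13 of 26 were on the array and 10 were tested. Of these 4 were higher and 2 lower, with a median of 0.21, and without iP animal 5 the counts were 6 and 2. Besides Rgs4, the calcium sensor gene Vsnl1 rose by 0.76 ± 0.07, Nrgn, the calmodulin-binding neurogranin of dendritic spines, by 0.65 ± 0.04, and the pentraxin gene Nptx1 by 0.45 ± 0.08. Another Nptx1 probe set, on another record, differed by 0.27 ± 0.12 (limma adjusted p = 0.162). Against hippocampus alone the brightest Nptx1 probe set differed by -0.08 (adjusted p = 0.68). The calmodulin-binding peptide gene Pcp4 fell by 0.58 ± 0.08, with -1.37 against striatum and -1.27 against accumbens. It differed by 0.29 from hippocampus (limma adjusted p = 0.0529) and by 0.01 from amygdala (adjusted p = 0.963). The other lower member, named after its values were seen, was the transcription factor gene Neurod1 (-0.38 ± 0.09), which differed by -1.15 from hippocampus and by 0.22 from striatum. The summed signal of the 13 genes ran from 48650 to 59080 in cortex, 45340 to 53630 in striatum, 36640 to 43520 in hippocampus, 32490 to 52670 in amygdala and 27590 to 34260 in accumbens. Cortex and striatum thus overlapped on this sum, and hippocampus and accumbens did not reach cortex. The sum is of linear signals, so the brightest genes weigh most. Nrgn had the highest cortex mean of the tested members (14.86, log2) and differed from accumbens by 1.56. The sum without Nrgn was not computed.

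Voltage-gated potassium channel genes numbered 17 tested of 24 on the array, with 7 higher, 2 lower and a median of 0.15 (9 higher and 2 lower without iP animal 5). The silent subunit gene Kcns3 rose by 0.86 ± 0.13 and Kcnv1 by 0.61 ± 0.06, and the beta subunit gene Kcnab1 fell by 0.69 ± 0.09. Kcnab1 differed by -1.27 from striatum, -1.05 from hippocampus and -0.77 from accumbens. It was higher in cortex than in amygdala by 0.34 (limma adjusted p = 0.0304). Of 15 sodium and calcium channel genes tested, 3 were higher, with Scn1a first and the calcium channel gene Cacnb4 next (0.58 ± 0.11), and 3 lower (6 and 3 without iP animal 5). Of 9 GABA-A receptor subunit genes 2 were higher, Gabrb2 (0.32 ± 0.07) and Gabrd (0.31 ± 0.07), and 2 lower (3 and 2). Of 19 glutamate receptor genes 3 were higher and 3 lower (4 and 4), among them the inhibitory receptor gene Grm2, which rose by 0.54 ± 0.08, and the AMPA receptor gene Gria1, which fell by 0.79 ± 0.09 on its brightest probe set. Other Gria1 probe sets differed by -0.22 ± 0.12 and -0.24 ± 0.21, neither past the threshold. The kainate receptor gene Grik2 fell by 0.72 ± 0.11.

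Of 20 monoamine and muscarinic receptor genes 4 were higher and 4 lower (5 and 4 without iP animal 5). Next to Adra1b, the serotonin receptor gene Htr2a rose by 0.84 ± 0.11, with 1.70 against hippocampus and 0.17 against accumbens. Htr5b fell by 1.01 ± 0.24, mostly against hippocampus (-2.56). Among 17 genes of phospholipase C and protein kinase C signalling 5 were higher and 1 lower (5 and 2), and among them the kinase gene Prkcb rose by 0.58 ± 0.06. Of 16 calmodulin kinase and calcineurin genes 3 were higher and 2 lower, and 7 and 2 without iP animal 5. Camkk1, a kinase of the calmodulin kinases, rose by 0.63 ± 0.05. Of 14 EF-hand genes 4 were higher (Tnnc2, Pvalb, S100a10 and Vsnl1) and 2 lower (6 and 2). Of 23 activity-induced genes 4 were higher and 1 lower (8 and 2), with Egr1 at 0.52 ± 0.07 and Arc at 0.39 ± 0.06 among the higher ones, and the nuclear receptor gene Nr4a2 fell by 0.56 ± 0.09. Of 7 Wnt pathway genes Dact2 was higher and the receptor gene Fzd1 lower (-0.58 ± 0.12).

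**Figure D4:**
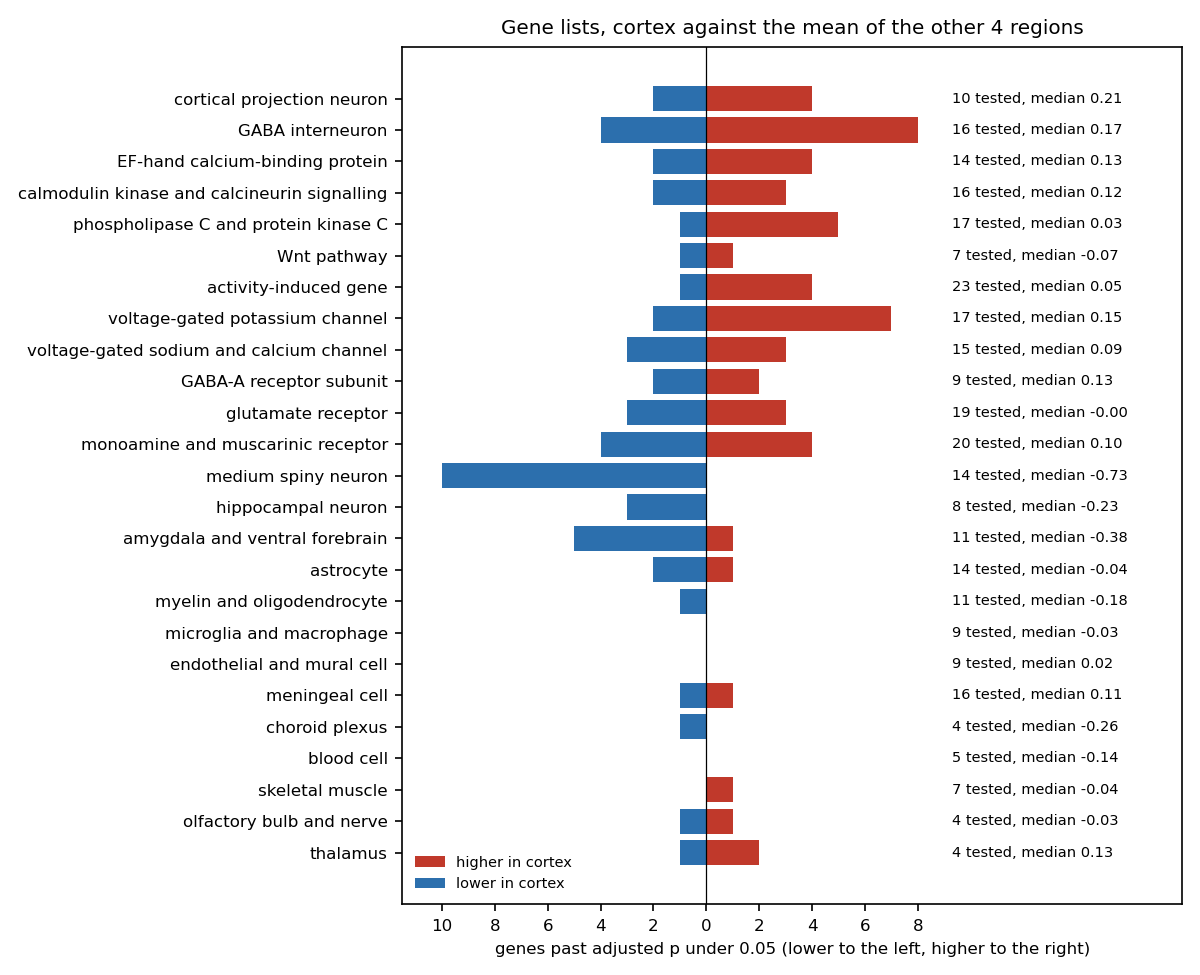
Number of genes of each list past a limma adjusted p under 0.05 in cortex against the mean of the other 4 regions, with all 11 rats, higher to the right and lower to the left, and the number tested and the median log2 difference at the right. The longest bars are the 10 lower medium spiny neuron genes and the 8 higher GABA interneuron genes.

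Genes of medium spiny neurons gave the most lopsided count. Of 14 tested, 0 were higher, 10 were lower and 4 did not pass, with a median of -0.73 (0 and 11 without iP animal 5). Against striatum 12 were lower and against accumbens 11, while against hippocampus 3 were higher and 0 lower. At the same threshold cortex was higher than striatum in 3.28% of all probe sets and lower in 3.09%, higher than hippocampus in 8.1% and lower in 7.25%, higher than amygdala in 8.94% and lower in 10.9%, and higher than accumbens in 6.88% and lower in 9%. The summed signal of the 17 genes on the array ran from 17510 to 20210 in cortex, 42400 to 72850 in striatum, 15730 to 18470 in hippocampus, 19050 to 33860 in amygdala and 42730 to 54490 in accumbens. Of 11 genes of amygdala and ventral forebrain 5 were lower and 1 higher (5 and 2 without iP animal 5), and of 8 hippocampal neuron genes 3 were lower and 0 higher (3 and 1). Among the lower genes were Plagl1, an imprinted zinc finger gene (-1.03 ± 0.10), and Nnat.

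Lists of cells that are not neurons counted few genes against the mean of the other regions, but some differed against single regions. Of 11 myelin genes 1 was lower and 0 higher (5 lower without iP animal 5), yet 9 were higher against amygdala, 5 lower against striatum, 7 lower against hippocampus and 6 lower against accumbens. Their summed signal ran from 68020 to 95760 on 10 cortex arrays and was 45780 in cortex of iP animal 5. It ran from 39180 to 99970 in amygdala and from 96850 to 144500 in hippocampus. Of 16 meningeal genes 1 was higher and 1 lower, yet 12 were higher against striatum and 12 against hippocampus, and 10 were lower against amygdala and 11 against accumbens. Their summed signal ran from 19120 to 51490 in cortex, 10480 to 29310 in striatum, 10640 to 27830 in hippocampus, 31070 to 61340 in amygdala and 43670 to 62790 in accumbens. Cortex lay between the other regions on this sum, and its part in the results above was not tested.

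Of 14 astrocyte genes 1 was higher and 2 lower (3 and 4 without iP animal 5), and the angiotensinogen gene Agt fell by 0.42 ± 0.10. Of 9 microglia genes and of 9 endothelial genes 0 passed either way (1 higher and 2 lower, and 0 and 0, without iP animal 5), and of 5 blood cell genes 0 passed. Against amygdala and against accumbens, 4 of the 5 blood cell genes were lower in cortex, and against striatum and hippocampus 0 passed. The summed signal of the 7 blood cell genes on the array ran from 24790 over 32910 to 52520 in cortex, 27100 over 38580 to 64880 in amygdala and 35500 over 54180 to 71370 in accumbens, and its part in the results was not tested. Of the astrocyte genes 5 were lower and 1 higher against amygdala, and 3 of the microglia genes were lower there. Of 4 choroid plexus genes only Ttr was lower. Of 4 olfactory genes Olr59 was higher and Gnal lower, and of 4 thalamic genes Plcb4 and the T-type calcium channel gene Cacna1g (0.31 ± 0.05) were higher and Calb2 lower. Several genes stand on more than 1 list.

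The choice of animals mattered for members near the threshold. Of 83 named genes past the adjusted p, 10 lost it when at least 1 animal was left out, namely Aldoc, Crh, Dgkb, Gabra2, Gabrb1, Grm3, Inhba, Man1a1, Scn3a and Ugt8. None of the 15 highest and 15 lowest genes did.

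The lines did not differ detectably in the cortex difference of any probe set. The test of iP minus iNP within-rat differences called 0 of 5244 (0%) at a limma adjusted p under 0.05, and 109 had an unadjusted p under 0.05, against 262.2 that 5 in 100 would give. It also called 0 (0%) without iP animal 5, with 230 at the unadjusted p. The 5 smallest p-values were those of Cyp4a1 (-0.57 ± 0.15, unadjusted p = 0.00199), Psme1 (0.60 ± 0.16), Eln (0.74 ± 0.22), Klk6 (0.41 ± 0.13) and Aldh1a2 (0.93 ± 0.29), each with an adjusted p of 0.999.

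The cortex array of iP animal 5 and the amygdala array of iP animal 1 were looked at on the probe sets called without iP animals 1 and 5. These were 36 higher (0.686%) and 30 lower (0.572%), and some genes have more than 1 probe set among them. On the 36 higher probe sets, cortex of iP animal 5 lay within the range of the other 9 cortex arrays in 9, above it in 12 and below it in 15. The share of all tested probe sets outside this range was not computed. The array was within the cortex range for Tnnc2 (10.54) and Dact2 (11.39) and above it for Pvalb (12.18) and Plcb4 (10.47). It was near the floor of 4 for some other probe sets. Camk2g had 4.82, against 10.88 to 11.51 on the other 9 cortex arrays. The kinase inhibitor gene Camk2n1 had 4.52, against 11.11 to 12.06. Camk4 and Akt2 were at the floor, with 7.85 to 9.58 and 7.93 to 9.10 on the others, and a probe set of the calcium release channel gene Itpr1 had 4.04, against 8.88 to 9.99. These 5 genes were named after their values were seen. Others lay below the cortex range but well above the floor, such as Rgs4 with 10.73, against 11.50 to 12.24, and Tacr3 with 7.78, against 9.37 to 9.71.

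Amygdala of iP animal 1 lay within the range of 9 cortex arrays in 20 of the 36, below it in 10 and above it in 6. Against the other 11 amygdala arrays it lay above the range in 31 of 36 and within it in 5. Tnnc2 was among the genes in which it did not reach cortex, with 8.55 against 10.09 to 10.82 in cortex and 7.99 to 8.33 in the other amygdala arrays. On the 30 lower probe sets it lay below the other amygdala arrays in 19 and within them in 11. These positions were counted on the called probe sets only. The share over all tested probe sets was not computed, so how far they are particular to the calls cannot be told. In the comparison of cortex with amygdala, leaving out iP animal 1 moved the calls to 144, against 111 with all 11 rats.

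**Figure D5:**
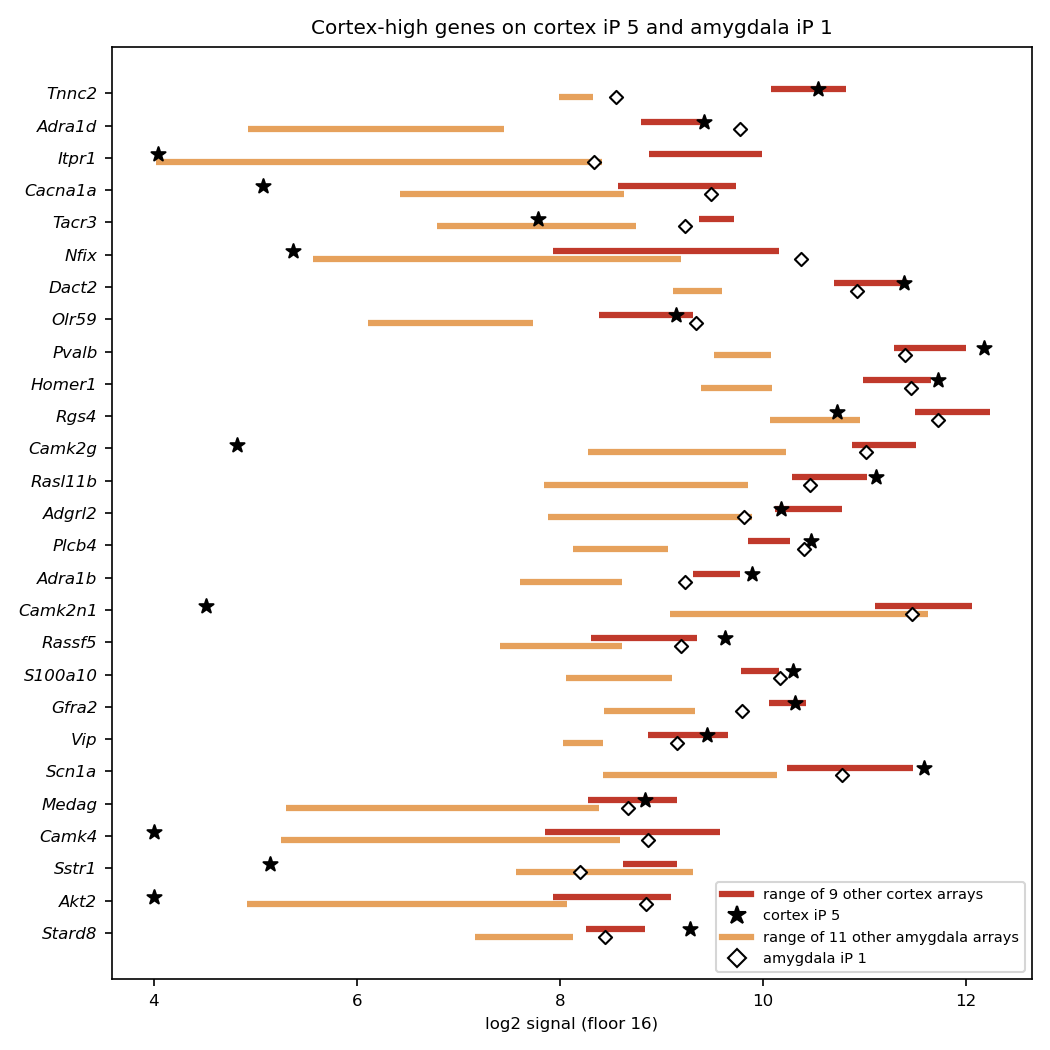
Log2 signal of the named genes called higher in cortex without iP animals 1 and 5, with bars for the range of the other 9 cortex arrays (red) and the other 11 amygdala arrays (orange), a star for cortex of iP animal 5 and a diamond for amygdala of iP animal 1. The stars of Camk2g, Camk2n1, Camk4, Akt2 and Itpr1 lie at 4.00 to 4.82, and most diamonds lie to the right of the orange bars.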

How the data were processed

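The authors deposited 1 intensity per probe set and array, linear by its range. Its software was not given in the sources used here. On every array the 2% trimmed mean rounded to 1000, and no array was scaled again. Signals under 16 were set to 16 and log2 transformed, with no pseudocount. Of 8799 probe sets, 59 controls and the 40% with the lowest mean were left out, which left 5244. Of the probe sets that are no controls, 7006 carry 1 gene symbol, 308 several and 1426 none in the array annotation; 6985 matched the RefSeq gene table (GRCr8) and 0 symbols changed. Precision is limited by the number of rats.

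Region, line and animal number were read from the titles and the genotype label, not from the source name, which says iNP on all 59 arrays. Within-rat differences were tested against 0 with limma 3.58.1 in R 4.3.3 (two-sided, empirical Bayes with an intensity trend, Benjamini-Hochberg over 5244 probe sets). The pairing follows from the animal numbers. The residuals of cortex and of the other regions correlated by 0.14 on average within a rat (-0.36 to 0.45, over 0.1 in 7 of 11 rats) and by -0.04 between rats of a line.

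The members and the gene lists were chosen with earlier results of these data known. Named genes carry 1 symbol, with the brightest probe set standing for a gene. They are the 15 largest rises and falls among calls of 1 sign in at least 10 rats, up to 10 genes called each way against each single region, up to 5 members of each list past the adjusted p and 2 not past it, the 5 smallest p-values between the lines, Tnnc2, Dact2, Pvalb and Plcb4, and the 3 genes most like each. Simulated data with known changes served to test the fits. Alternatives were other filters, floors and scalings, array weights, the Gapdh ratio as a covariate, and leaving out animals. Promoters are from RefSeq (GRCr8), and 4 of 4 genes sought were matched.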

Additional observations from a re-analysis of the deposited data

Results flagged for a closer look

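Of 16 tests for an array far from the rest of its group, 4 found one, and all 4 were of cortex of iP animal 5 among the 5 iP cortex arrays. Its median signal was 250.9, its Gapdh 3′ to 5′ ratio 6.14 (log2), its beta-actin 3′ to 5′ ratio 4.42 (log2) and its mean correlation with its group 0.813. Such a test finds about 1 in 20 groups by chance. The 16 tests did not take in every measure in each of the 10 groups, so arrays of other groups may also stand apart. Accumbens of iP animal 4 had a mean correlation with its group of 0.925, against 0.951 to 0.956 on the other iP accumbens arrays.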

How the results depend on the processing

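Calls of cortex against the mean of the other 4 regions numbered 52, and 49 to 62 with 1 animal left out; at the adjusted p alone they ran from 542 (without iNP animal 10) to 1263 (without iP animal 5), against 699. Against striatum the counts ran from 50 to 58, hippocampus 109 to 139, amygdala 96 to 144, accumbens 94 to 126, against each region 2 (without iP animal 2) to 5 (without iP animal 5), and between the lines 0 to 0. With no filter on dim probe sets the counts were 98 against the mean, 91 for striatum, 190 for hippocampus, 194 for amygdala, 198 for accumbens and 9 against each region; with the lowest 60% dropped, and so fewer tested, 25, 29, 61, 55, 54 and 0. At the adjusted p alone, 1242 passed without iP animals 1 and 5, 1244 with array weights and 1216 with the Gapdh ratio as a covariate. A fit of all 59 arrays with the animal as a replicate block called 53 (894 at the adjusted p alone), and with no replicate block 54 (813), so the pairing changed neither count by over 1.5 times. Floor, quantile scaling, no variance trend and averaging striatum with accumbens first kept the counts against the mean within 1.5 times. The 15 highest and 15 lowest genes kept their direction and their side of the adjusted p in all 677 refits in which they were tested. Over the 129 named genes, without those named only for a line difference, no gene past the threshold changed direction. In these, 95 refits lost the threshold and 129 gained it. Refits on the mean of all tested probe sets of a gene are counted apart, with 3 lost and 6 gained. Signal over background was not measured here, so dim genes are limited by the floor and the filter.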
